A study of Mus musculus with 4 samples.

Results

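The ErbB receptors and their neuregulin ligands were followed in olfactory bulb RNA from mice lacking the transcription factors Sp8 and Sp9 in the forebrain GABAergic lineage and from littermate controls. The members are 8 of the 20032 genes listed in the deposited table, taken by gene symbol: the receptors Egfr, Erbb2, Erbb3 and Erbb4 and the ligands Nrg1, Nrg2, Nrg3 and Nrg4. The mutants, called DCKO, carried Sp8 Flox/Flox, Sp9 Flox/Flox and the Dlx5/6-CIE transgene, in which a Dlx5/6 enhancer active in GABAergic precursors drives Cre recombinase. The controls were littermates without Cre, so the effects of the deletion and of the transgene cannot be told apart, and whether the controls carried floxed alleles is not given in the sources used here. All mice were 11 days old after birth and shared a mixed background of C57BL/6J, 129S6 and CD1. Olfactory bulbs of 2 DCKO samples and 2 controls gave 4 libraries, and the labels do not say whether samples of a genotype came from separate animals, so the p-values reflect differences among these samples only, which may be technical.

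ErbB proteins are receptor tyrosine kinases that signal as pairs. Neuregulins bind ErbB3 and ErbB4, ErbB2 has no known ligand of its own and serves as the partner of the others, and EGFR binds a separate group of ligands such as EGF and TGFα. In the postnatal forebrain ErbB4 is known from the migrating neuroblasts and the interneurons that supply the olfactory bulb, EGFR from dividing progenitors and glia, and ErbB3 from the oligodendrocyte lineage and the ensheathing glia of the olfactory nerve.

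Erbb4 fell in DCKO bulbs and became the least abundant receptor there, while the other 3 receptors and the ligands Nrg1 and Nrg3 rose. Levels are given as FPKM, fragments scaled by transcript length and library size, so that genes can be set side by side within a library. FPKM is relative to the whole library, so a rise or fall in it does not give an amount per cell or per bulb. Changes are DCKO minus control on the log2(FPKM + 1) scale, a scale that compresses the changes of weakly expressed genes, and were tested with limma over the 13434 genes whose mean FPKM was 1 or more. A gene is called where the Benjamini-Hochberg adjusted p is below 0.05. Of the 8 members, 7 passed the filter on low values, and all 7 were called, 5 higher and 2 lower. Over all tested genes 27.3% were called, 13% higher (1747 genes) and 14.3% lower (1926 genes); with each library centred on its median, 2225 were higher and 1580 lower. Fewer members were called with 1 library left out, and fewer genes over all tested genes were called then too. Of the 7, only Erbb4 and Nrg1 kept their call in every omission. Nrg4, with a mean just under the filter, was not in that test.

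The libraries had similar sums of scaled fragments, and the targeted genes were low where the labels say so. Sums taken after scaling do not show the sequencing depth. The deposited fragment counts, which the authors had scaled, summed to 14899179 and 14632502 in DCKO and to 15033308 and 15400982 in controls. Sp8 stood at 1.68 and 2.03 FPKM in DCKO and 31.96 and 26.7 FPKM in controls, and Sp9 at 0.0674 and 0.236 FPKM in DCKO and 24.0 and 30.7 FPKM in controls. These values cover whole gene models and do not separate floxed exons from the rest. The tissue label was checked against bulb markers, and in every library the defining markers of mitral and tufted cells were present, with the vesicular glutamate transporter gene Slc17a7 at 743 and 621 FPKM in DCKO and 345 and 379 FPKM in controls and the cadherin gene Cdhr1 at 477 and 422 FPKM in DCKO and 243 and 271 FPKM in controls. None of the listed markers of bulb neurons and glia was at 0 in any library. The fibroblast collagen gene Col1a1 set control replicate 1 apart, at 27.3 and 39.6 FPKM in DCKO and 120.7 and 17.6 FPKM in controls.

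**Figure D1:**
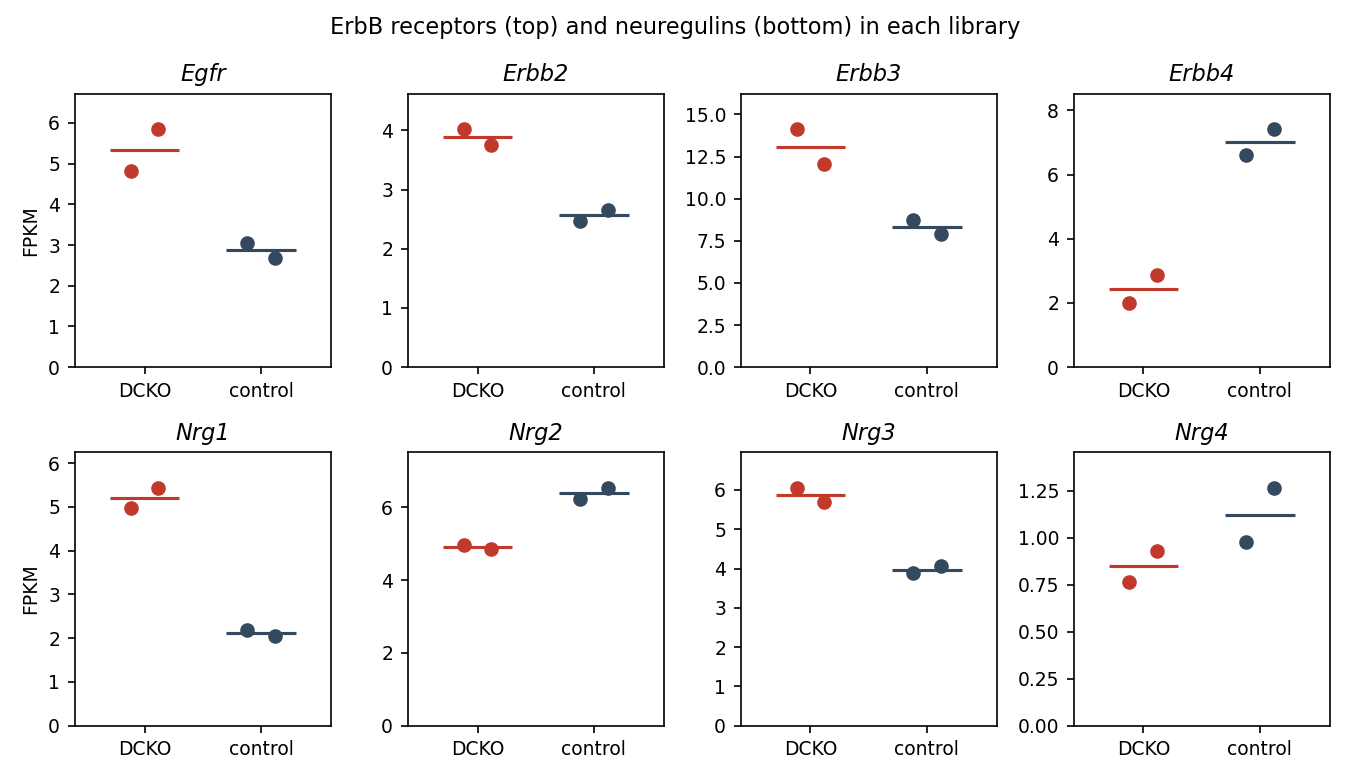
FPKM of each ErbB receptor (top row) and neuregulin (bottom row) in the 2 DCKO libraries (red, left) and the 2 control libraries (dark blue, right). Points are libraries, horizontal lines are group means, and each axis starts at 0. Erbb4, Nrg2 and Nrg4 lie lower in both DCKO libraries than in both controls, and the other 5 genes lie higher.

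Promoter windows of 4 members are shown because the deleted factors belong to the Sp family, whose members bind GC-rich boxes, and because these members include the receptor that fell and several that rose. RefSeq windows (GRCm38.p6) matched 5 of the 8 members, and 250 bases before the start were read for Erbb4 (chr1:69108060-69108309, - strand), Egfr (chr11:16751953-16752202, + strand), Erbb2 (chr11:98412234-98412483, + strand) and Nrg3 (chr14:39473089-39473338, - strand). Capitals mark matches to any of 4 motifs searched on both strands, the GC box GGGCGG, the homeodomain core TAATTA, the TATA box TATAAA and the CCAAT box CCAAT.
Erbb4: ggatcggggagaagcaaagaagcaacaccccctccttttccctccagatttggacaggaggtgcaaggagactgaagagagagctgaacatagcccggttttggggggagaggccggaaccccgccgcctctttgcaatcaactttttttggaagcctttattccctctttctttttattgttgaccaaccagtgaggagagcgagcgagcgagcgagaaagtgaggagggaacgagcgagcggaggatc
Egfr: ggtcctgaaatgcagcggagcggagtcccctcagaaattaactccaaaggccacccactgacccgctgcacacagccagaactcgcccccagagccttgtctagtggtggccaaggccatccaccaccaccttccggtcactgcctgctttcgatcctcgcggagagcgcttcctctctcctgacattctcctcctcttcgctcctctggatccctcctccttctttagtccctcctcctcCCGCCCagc
Erbb2: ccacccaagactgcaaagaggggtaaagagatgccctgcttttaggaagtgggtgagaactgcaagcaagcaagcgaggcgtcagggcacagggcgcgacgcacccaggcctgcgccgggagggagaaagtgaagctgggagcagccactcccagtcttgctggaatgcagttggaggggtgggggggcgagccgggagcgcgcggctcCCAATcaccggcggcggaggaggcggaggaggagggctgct
Nrg3: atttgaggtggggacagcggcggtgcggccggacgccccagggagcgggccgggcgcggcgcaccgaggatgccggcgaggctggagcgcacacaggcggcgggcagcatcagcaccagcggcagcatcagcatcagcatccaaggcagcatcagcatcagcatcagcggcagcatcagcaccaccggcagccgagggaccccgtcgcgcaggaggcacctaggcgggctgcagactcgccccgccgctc
The Egfr window held a GC box whose first base lay 9 bases before the start, and the Erbb2 window held a CCAAT box at 41 bases. No match to any of the 4 motifs lay in the Erbb4, Nrg3 or Nrg4 windows. Among all 32851 windows of this length, 32.7% held the GC box, 33.8% the CCAAT box, 12.4% the TATA box and 4.84% the homeodomain core. The share of G or C was 54.0% for Erbb4, 60.8% for Egfr, 66.0% for Erbb2, 72.4% for Nrg3 and 53.2% for Nrg4. Of all windows, 55.2% had a lower share than Erbb4, 73.9% than Egfr, 84.5% than Erbb2, 93.6% than Nrg3 and 52.6% than Nrg4, so the Erbb4 and Nrg4 windows lay near the middle. The Nrg4 window (chr9:55283626-55283875, - strand) lay inside the gene as annotated, from 55220222 to 55326844, and not before its outer start. A match is a description of the letters and not a binding site.

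Erbb4, the neuregulin receptor with an active kinase, lies on chromosome 1 from 68032186 to 69108059 on the - strand (GRCm38, GENCODE M21), a protein-coding gene of 1075.9 kb. It had 2.01 and 2.87 FPKM in DCKO bulbs, against 6.62 and 7.41 FPKM in control bulbs. Both DCKO libraries were well below both controls, and the groups did not overlap. The mean was 2.87-fold lower in DCKO (2.44 ± 0.609 FPKM in DCKO and 7.02 ± 0.560 FPKM in controls, SD, n = 2 each). On the log2 scale the change was -1.23, with an SE of 0.15 and a 95% interval of -1.62 to -0.84 (limma adjusted p = 0.00845), and 2.55% of tested genes fell at least as far. The call held in each of the 12 alternative settings run for it, including the omission of each library in turn. Behind these values lay 172.9 and 241.5 scaled fragments in DCKO and 563.6 and 633.6 in controls. The 8 genes that overlap Erbb4 in the annotation lie on its own strand, among them a pseudogene, an snRNA and a sense-intronic RNA, and none is in the table, so reads from them cannot be separated from Erbb4 here.

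Egfr, the receptor of EGF and TGFα, lies on chromosome 11 from 16752203 to 16918158 on the + strand. It had 4.82 and 5.85 FPKM in DCKO and 3.06 and 2.69 FPKM in controls. Both DCKO libraries were above both controls, with the DCKO pair spread more widely than the control pair. The mean was 1.86-fold as high in DCKO (5.33 ± 0.727 FPKM in DCKO and 2.87 ± 0.264 FPKM in controls, SD, n = 2 each), a log2 change of 0.71 (SE 0.13, limma adjusted p = 0.0189). Omitting control replicate 2 ended the call (log2 change 0.64, adjusted p = 0.0626). The antisense gene Egfros overlaps Egfr on the other strand, and because the strand setting is not given in the sources used here, reads of the pair cannot be told apart.

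Erbb3, which binds neuregulins but has little kinase activity of its own, lies on chromosome 10 from 128567523 to 128589652 on the - strand. It was the most abundant member in both genotypes, at 14.1 and 12.1 FPKM in DCKO and 8.72 and 7.88 FPKM in controls. The lowest DCKO library stood above the highest control. The mean was 1.58-fold as high in DCKO (13.1 ± 1.45 FPKM in DCKO and 8.30 ± 0.591 FPKM in controls, SD, n = 2 each), with a log2 change of 0.60 (SE 0.11, limma adjusted p = 0.0185). Omitting DCKO replicate 1 (adjusted p = 0.0513) or control replicate 2 (0.0654) ended the call.

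Erbb2, the partner receptor with no known ligand, lies on chromosome 11 from 98412470 to 98437716 on the + strand. It had 4.02 and 3.76 FPKM in DCKO, against 2.47 and 2.66 FPKM in controls, and the groups did not overlap. The mean was 1.52-fold as high in DCKO (3.89 ± 0.186 FPKM in DCKO and 2.56 ± 0.134 FPKM in controls, SD, n = 2 each), with a log2 change of 0.46 (SE 0.10, limma adjusted p = 0.0334). This call is less firm than those above: it was lost with any 1 of the 4 libraries left out, with adjusted p of 0.0587 to 0.145, and with quantile normalization (adjusted p = 0.0513). At its 3′ end Erbb2 overlaps Mien1 on the other strand, an abundant gene with 85.2 and 73.1 FPKM in DCKO and 63.9 and 62.5 FPKM in controls, and the part of its reads in the Erbb2 value was not tested.

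Nrg1, a ligand of ErbB3 and ErbB4, had the largest increase among the members. It lies on chromosome 8 from 31814551 to 32884029 on the - strand and has 12 protein-coding transcripts in the annotation, which the gene-level values do not separate. It had 4.99 and 5.44 FPKM in DCKO, against 2.19 and 2.06 FPKM in controls. The groups stood far apart relative to the spread within each: 5.21 ± 0.320 FPKM in DCKO and 2.13 ± 0.0934 FPKM in controls (SD, n = 2 each), 2.45-fold as high in DCKO. On the log2 scale the change was 0.99, with an SE of 0.10 and a 95% interval of 0.73 to 1.25 (limma adjusted p = 0.00567), and 1.48% of tested genes rose at least as far. Like that of Erbb4, the call held in each of the 12 alternative settings run for it.

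Nrg3, a ligand of ErbB4, lies on chromosome 14 from 38368952 to 39473088 on the - strand and also rose. It had 6.06 and 5.71 FPKM in DCKO and 3.88 and 4.07 FPKM in controls, with no overlap. The mean was 1.48-fold as high (5.88 ± 0.249 FPKM in DCKO and 3.97 ± 0.131 FPKM in controls, SD, n = 2 each), with a log2 change of 0.47 (SE 0.09, limma adjusted p = 0.0224). The call was lost without DCKO replicate 1 (adjusted p = 0.0632), control replicate 1 (0.112) or control replicate 2 (0.0901). The 3 genes annotated as antisense to it, Nrg3os, Gm20641 and Gm20642, overlap it on the other strand.

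Nrg2, which binds ErbB3 and ErbB4, fell slightly. It lies on chromosome 18 from 36017652 to 36197380 on the - strand and had 4.95 and 4.87 FPKM in DCKO, against 6.24 and 6.54 FPKM in controls. The libraries of a genotype were close to each other and the groups did not overlap. The mean was 1.30-fold lower in DCKO (4.91 ± 0.0632 FPKM in DCKO and 6.39 ± 0.213 FPKM in controls, SD, n = 2 each), with a log2 change of -0.32 (SE 0.08, limma adjusted p = 0.0459). This is the weakest call of the 7, since it was lost with any 1 library left out (adjusted p 0.0840 to 0.266) and with libraries centred on their medians (adjusted p = 0.0749). An antisense gene, 4930471G03Rik, overlaps it on the other strand.

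Nrg4, a ligand of ErbB4, was the least abundant member, on chromosome 9 from 55220222 to 55326844 on the - strand. It had 0.765 and 0.928 FPKM in DCKO and 0.975 and 1.27 FPKM in controls, from 29.3 and 34.5 scaled fragments in DCKO and 37.3 and 49.2 in controls. The groups did not overlap, but by a small margin, and Fbxo22 overlaps Nrg4 on the other strand, at 16.9 and 19.2 FPKM in DCKO and 17.6 and 20.9 FPKM in controls. In a fit with no filter on low values the log2 change was -0.20 (95% confidence interval -0.52 to 0.12, limma adjusted p = 0.324), so no difference was detected, and the interval covers changes in either direction. All 8 members had groups that did not overlap, a state shared by 71.5% of tested genes, 33.9% higher and 37.6% lower in DCKO.

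**Figure D2:**
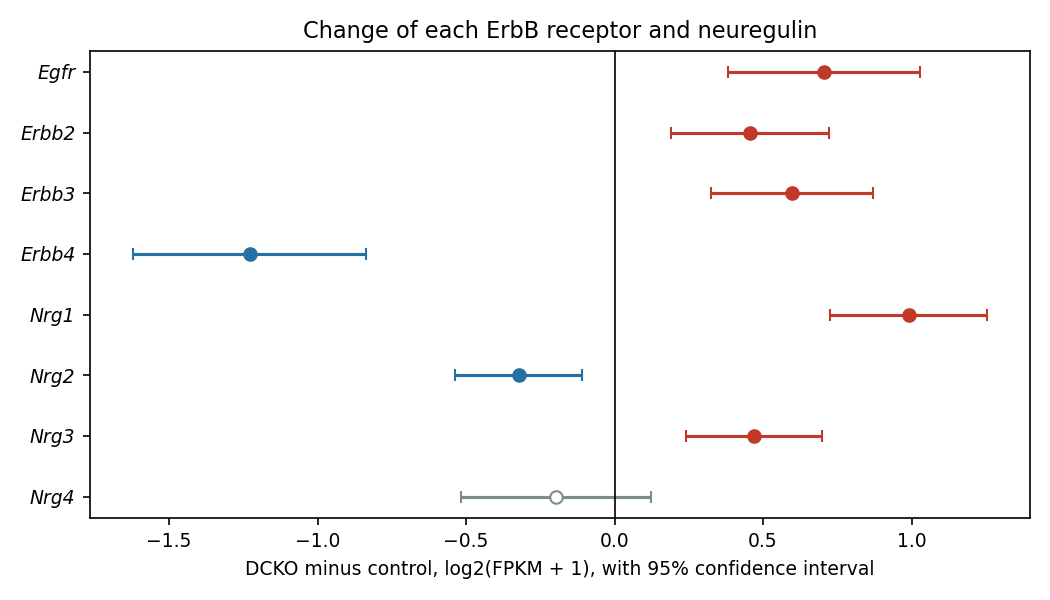
Change of each member, DCKO minus control, on the log2(FPKM + 1) scale, with 95% confidence intervals from limma. Filled red points were higher and filled blue points lower at an adjusted p below 0.05, and the open grey point is Nrg4 from the fit with no filter, whose interval of -0.52 to 0.12 includes 0.

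Because FPKM is scaled by length, the members can also be described as a mixture within each library. The 4 receptors summed to 24.97 and 24.5 FPKM in DCKO and 20.9 and 20.6 FPKM in controls. The summed FPKM, a level relative to the library, was thus higher in DCKO while Erbb4 was lower. Erbb4 made up 8.06% and 11.7% of receptor FPKM in DCKO bulbs, against 31.7% and 35.9% in control bulbs. Erbb3 made up 56.5% and 49.2% in DCKO and 41.8% and 38.2% in controls. Egfr made up 19.3% and 23.8% in DCKO and 14.7% and 13.0% in controls, and Erbb2 16.1% and 15.3% in DCKO and 11.8% and 12.9% in controls. Each receptor's share had groups that did not overlap, and with 2 libraries against 2 the smallest two-sided p of an exact permutation test is 0.333, which each of these shares gave.

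The mixture of ligands held less Nrg2 and more Nrg1 in DCKO bulbs. The neuregulins summed to 16.8 and 16.9 FPKM in DCKO and 13.3 and 13.9 FPKM in controls. Nrg2 made up 29.6% and 28.7% of neuregulin FPKM in DCKO, against 47.0% and 46.9% in controls, while Nrg1 made up 29.7% and 32.1% in DCKO, against 16.5% and 14.8% in controls. Nrg3 held 36.1% and 33.7% in DCKO and 29.2% in each control. Nrg1 and Nrg2 were thus near equal in DCKO, with 1.007 and 1.12 units of Nrg1 per unit of Nrg2, against 0.351 and 0.315 in controls. These shares also gave an exact two-sided permutation p of 0.333, the smallest the design allows.

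**Figure D3:**
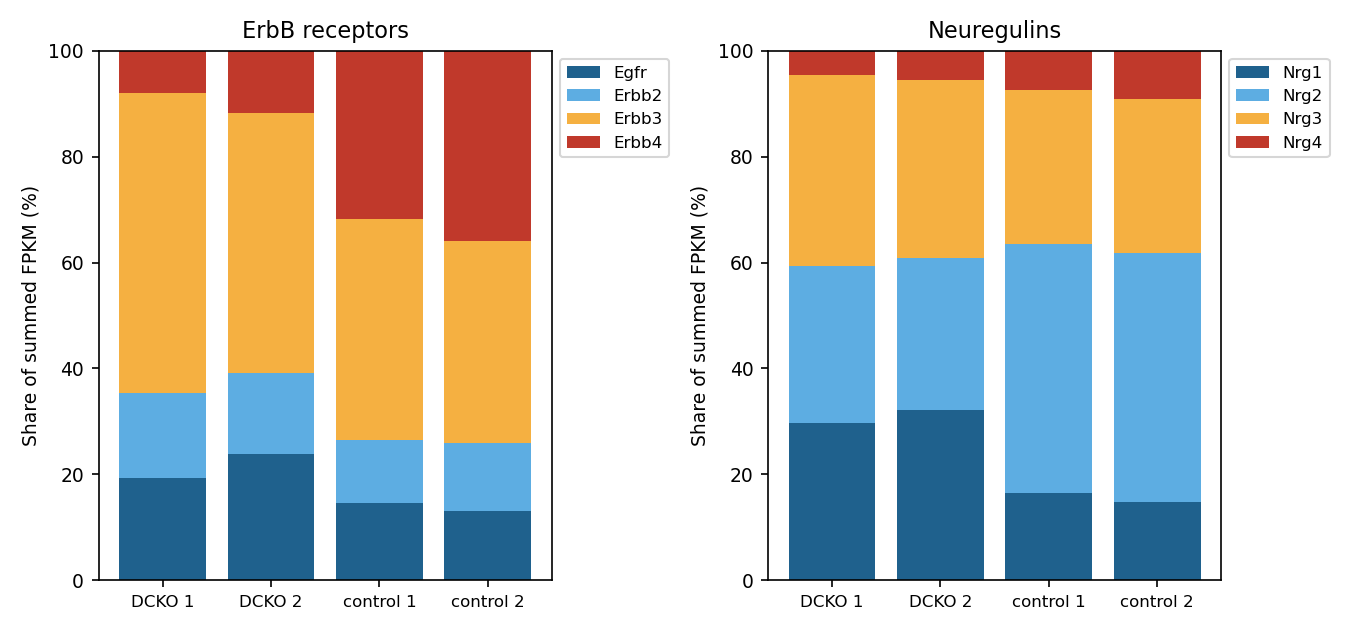
Share of each gene in the summed FPKM of the 4 receptors (left) and the 4 neuregulins (right), one bar per library with DCKO at left, each bar adding to 100%. The Erbb4 segment is 8.06% and 11.7% of receptor FPKM in the DCKO bars and 31.7% and 35.9% in the control bars, and the Nrg2 segment is smaller in both DCKO bars.

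The order of the members by mean level also differed between genotypes. In DCKO it was Erbb3, Nrg3, Egfr, Nrg1, Nrg2, Erbb2, Erbb4 and Nrg4. In controls it was Erbb3, Erbb4, Nrg2, Nrg3, Egfr, Erbb2, Nrg1 and Nrg4. Erbb3 led and Nrg4 closed both orders, and Erbb4 took rank 7 in DCKO and rank 2 in controls. Neighbours overlapped between libraries in DCKO for Nrg3 with Egfr and for Egfr with Nrg1, and no neighbours overlapped in controls. The ratio of Nrg1 to Erbb4 was 2.48 and 1.89 in DCKO and 0.331 and 0.278 in controls. These members had the largest rise and the largest fall, while the summed receptors and the summed neuregulins were both higher in DCKO. This ratio therefore does not describe ligands and receptors as a whole.

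Marker genes of several bulb cell types moved with the members, and bulk RNA cannot tell fewer cells of a type apart from less RNA per cell. The marker lists here and below were chosen with earlier results of these data known. Their counts therefore describe the listed genes and are no independent support. Over all tested genes 14.3% were called lower and 13% higher. All 10 granule cell markers fell, and 7 of 9 neuroblast markers did (5 to 9 with 1 library left out). Their summed level was 120.1 and 177.8 FPKM in DCKO and 988.2 and 968.5 FPKM in controls for granule cells, and 723.4 and 868.5 FPKM in DCKO and 1222 and 1215 FPKM in controls for neuroblasts. Beside the 2.87-fold lower Erbb4, the granule cell sum was 6.57-fold lower and the neuroblast sum 1.53-fold lower in DCKO. Of the granule cell markers, 9 of 10 were further below their control level than Erbb4 was, with folds from 2.57 for Gad2 to 16.0 for Penk. The most abundant of them were Gng4 (5.84-fold lower), Synpr (8.85-fold) and Gad1, a GABA-synthesising enzyme gene (6.71-fold). Of the neuroblast markers, 4 of 9 were further below their control level than Erbb4 was and 5 were less far below it. The most abundant of these were Tubb3 (1.201-fold lower, not called), Nrep (1.82-fold) and Dcx, the microtubule protein gene of neuroblasts (4.35-fold). Erbb4 thus lay between the granule cell and the neuroblast sums, a description with no test. Most of the neuroblast sum was Tubb3, at 557.9 and 598.3 FPKM in DCKO and 696.6 and 691.9 FPKM in controls. The size of the fall in that sum therefore rests largely on 1 gene, and single neuroblast markers were 1.201-fold to 19.9-fold lower. Mitral and tufted cell markers moved the other way, with all 8 tested genes called higher and sums of 1642 and 1461 FPKM in DCKO and 752.0 and 819.4 FPKM in controls. Markers of periglomerular interneurons were mixed: 4 of 7 were called lower, with sums of 317.5 and 293.4 FPKM in DCKO and 403.6 and 422.1 FPKM in controls. Th (30.5-fold) and Trh (29.3-fold) were lower, while the most abundant, Calb2, was not called (limma adjusted p = 0.906). Calb2 made up most of the periglomerular sums, at 308.4 and 284.2 FPKM in DCKO and 291.6 and 294.9 FPKM in controls. Those sums therefore say little about the other markers of the list. The part of these cell types in the Erbb4 and Nrg1 results was not tested.

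Glial markers are given beside Egfr, Erbb2 and Erbb3, whose transcripts glia are known to hold. The counts stand beside 13% called higher and 14.3% called lower over all tested genes. Of 12 astrocyte markers 9 rose, and their summed level was 1544 and 1413 FPKM in DCKO and 877.3 and 863.9 FPKM in controls. Of 7 markers of dividing progenitors 6 rose, with sums of 49.8 and 73.2 FPKM in DCKO and 34.5 and 33.4 FPKM in controls. Of 11 markers of olfactory ensheathing glia 4 rose, among them Fabp7, with sums of 3451 and 4001 FPKM in DCKO and 2425 and 2500 FPKM in controls; Npy and Sox10 of this list are also expressed by other bulb cells. Of this list, 2 were called without control replicate 1, and Fabp7 was not called without control replicate 1 (adjusted p = 0.234), without control replicate 2 (0.214) or with quantile normalization (0.349). By limma none of the 8 tested oligodendrocyte markers was called, though 2 rose without DCKO replicate 2 and 1 fell without DCKO replicate 1, and their sums overlapped between genotypes, at 1046 and 585.8 FPKM in DCKO and 609.2 and 813.1 FPKM in controls. Of 8 markers of oligodendrocyte precursors 1 rose, Lhfpl3, a share of 12.5%, near the 13% of all tested genes. Its limma call was lost without DCKO replicate 1 (adjusted p = 0.131), DCKO replicate 2 (0.102) or control replicate 1 (0.0687). Microglial markers rose for 6 of 8 (3 of 8 without control replicate 2), with sums of 143.9 and 153.0 FPKM in DCKO and 91.8 and 89.1 FPKM in controls. The part of any of these cell types in the higher Egfr, Erbb2 and Erbb3 was not tested.

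Outside the members, 104 genes of the ErbB pathway passed the filter on low values, and 13 rose and 25 fell, or 36.5% called against 27.3% of all tested genes. Their median log2 change was -0.06, against -0.02 over all tested genes. The increases were the less stable side, with 8 genes called higher without control replicate 1 and 4 without control replicate 2. The growth-factor response genes, described last, held 10 of the decreases.

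Among the other EGF-family ligands, Tgfa, which encodes the EGFR ligand TGFα, rose. It had 32.2 and 32.3 FPKM in DCKO and 21.8 and 24.1 FPKM in controls, more than any neuregulin (log2 change 0.47, limma adjusted p = 0.0146). Without control replicate 1 it was not called (adjusted p = 0.0625). Hbegf, a ligand of EGFR and ErbB4, had 5.68 and 6.76 FPKM in DCKO and 7.89 and 8.09 FPKM in controls and did not pass the test (adjusted p = 0.0772). Egf lay under the filter, at 0.378 and 0.222 FPKM in DCKO and 1.28 and 1.44 FPKM in controls, and Areg, Btc and Epgn were below 0.25 FPKM in every library. Of 3 neuregulin-related transmembrane proteins 1 was called: Cspg5, also known as neuroglycan C, fell to 56.0 and 55.1 FPKM in DCKO, against 71.4 and 75.2 FPKM in controls (log2 change -0.39, adjusted p = 0.0157), a call lost without control replicate 1 (0.0530) or 2 (0.0989).

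Proteases and iRhoms that release ErbB ligands from the membrane were called at the background share. Of 11 tested genes 3 rose and none fell, 27.3% called, with a median log2 change of 0.24. Without DCKO replicate 1, 1 rose, and without DCKO replicate 2, 3 rose and 1 fell. Adam17, the main sheddase of TGFα, had 12.3 and 13.0 FPKM in DCKO and 8.67 and 8.25 FPKM in controls (log2 change 0.53, limma adjusted p = 0.0116). Rhbdf1, an iRhom that escorts ADAM17, had 16.6 and 20.5 FPKM in DCKO and 13.5 and 10.95 FPKM in controls (0.56, adjusted p = 0.0449). Adam10 had a smaller rise (0.30, adjusted p = 0.0359). Without control replicate 2 none of these 3 calls held (adjusted p 0.0593 to 0.200). Rhbdf1 also missed without DCKO replicate 1 (0.0569) or 2 (0.121), and Adam10 without DCKO replicate 1 (0.0785) or control replicate 1 (0.118). Bace1, the protease that cuts NRG1, did not pass the test (log2 change 0.22, adjusted p = 0.0708).

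Adaptors at the docking sites of ErbB receptors moved in both directions. Of 23 tested genes 3 rose and 4 fell, with a median log2 change of -0.07. The share called was 30.4%, near the 27.3% of all tested genes. Those called numbered 1 higher and 2 lower without control replicate 1. Grb2, the adaptor that links receptors to RAS, fell to 42.8 and 39.2 FPKM in DCKO, against 71.8 and 75.9 FPKM in controls (log2 change -0.83, limma adjusted p = 0.00411). Shc4 rose to 7.93 and 6.21 FPKM in DCKO, against 3.81 and 3.65 FPKM in controls (0.76, adjusted p = 0.0170), and Gab1, a docking protein, rose by a smaller amount (0.52, adjusted p = 0.0106), a call lost without control replicate 1 (0.0506).

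In the kinase cascades below the receptors, 1 gene rose and 3 fell among 15 tested, 26.7% called against 27.3% of all tested genes. Map2k1, which encodes MEK1, had 36.4 and 37.9 FPKM in DCKO and 97.2 and 99.4 FPKM in controls (log2 change -1.38, limma adjusted p = 0.000959). Its paralog Map2k2 had 28.9 and 33.9 FPKM in DCKO and 31.2 and 26.3 FPKM in controls, with overlapping groups, and did not pass the test (adjusted p = 0.466). The difference in change between these paralogs was not tested. Nras rose (0.50, adjusted p = 0.0173), a call lost without control replicate 2 (0.0674).

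Among 20 tested negative regulators 1 rose and 4 fell, 25% called, a share near the 27.3% of all tested genes. Without control replicate 1 only Dusp6 was called. Dusp6, a phosphatase of MAP kinases, had 9.52 and 9.36 FPKM in DCKO and 20.3 and 17.7 FPKM in controls (log2 change -0.93, limma adjusted p = 0.00478). The feedback inhibitor Spry1 had 3.73 and 4.08 FPKM in DCKO and 7.45 and 6.42 FPKM in controls (-0.69, adjusted p = 0.0137), a call lost without control replicate 1 (0.0534) and without DCKO replicate 1, where the adjusted p rounded to 0.05. Its relative Spry2 moved the other way, at 16.4 and 17.1 FPKM in DCKO and 12.03 and 11.8 FPKM in controls (0.45, adjusted p = 0.0132), but not without control replicate 1 (0.0562) or 2 (0.0707). Socs5, which promotes EGFR turnover, fell (-0.47, adjusted p = 0.0223), but not without DCKO replicate 1 (0.0566), control replicate 1 (0.0710) or control replicate 2 (0.117).

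Synaptic scaffolds of the Dlg family fell, with Dlg1 as an exception that did not pass the test. Of 16 tested scaffolds and partners 3 rose and 3 fell, 37.5% called, and without control replicate 2 none rose. Dlg4, which encodes PSD-95, a scaffold that binds the tail of ErbB4, had 65.4 and 66.1 FPKM in DCKO and 138.1 and 146.8 FPKM in controls (log2 change -1.10, limma adjusted p = 0.00168). Its relatives Dlg3 (-0.81, adjusted p = 0.00805) and Dlg2 (-0.54, adjusted p = 0.00978) fell too, and these 3 calls held without each library. Sntb2, a syntrophin, rose (0.55, adjusted p = 0.0408), and its call was lost with any 1 library left out (adjusted p 0.0557 to 0.153).

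Growth-factor response genes had the lowest median among the 8 pathway lists. Of 14 tested genes 10 fell and 1 rose, 78.6% called, with a median log2 change of -1.84, and the same counts were called with each library left out. Egr1 had 8.09 and 11.3 FPKM in DCKO and 158.1 and 141.5 FPKM in controls (log2 change -3.83, limma adjusted p = 0.000808), Junb 8.65 and 8.41 FPKM in DCKO and 131.1 and 106.9 FPKM in controls, and Fos 7.90 and 10.01 FPKM in DCKO and 87.7 and 66.5 FPKM in controls. These are immediate early genes, which neuronal activity also induces, and Ccnd1, the cyclin D1 gene, was the member that rose (0.70, adjusted p = 0.00929). No value here separates growth-factor input from other inputs to these genes.

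**Figure D4:**
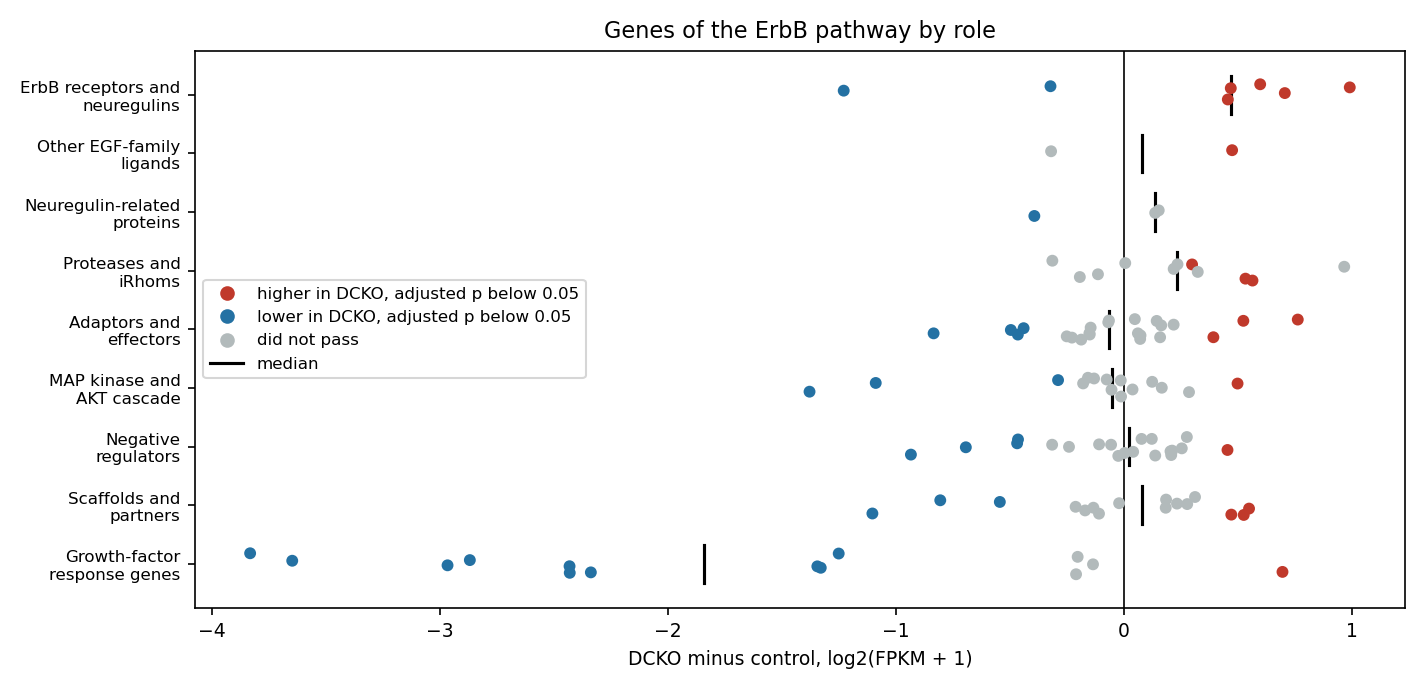
Log2 change, DCKO minus control, of each tested gene in the member list and the 8 pathway lists. Each point is a gene, red where higher and blue where lower at a limma adjusted p below 0.05 and grey otherwise, and black bars are list medians. The growth-factor response genes lie farthest to the left, with a median of -1.84, and the members lie on both sides of 0.

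For each called member the 3 tested genes of most similar pattern were found by the root-mean-square difference of their deviations from the gene mean on the log2(FPKM + 1) scale, over the 4 libraries. Erbb4 was closest to Gm16701 (0.0414), the AMPA receptor subunit gene Gria4 (0.0519) and Dnajb5 (0.0536). Nrg1 was closest to Ctss (0.0239), Ube2l6 (0.0268) and 1810010H24Rik (0.0317). Erbb2 and Nrg3 were among the 3 closest genes of each other, with a difference of 0.0104, and both had Rgcc among their 3. Egfr was closest to Rras, Nr2f2 and Cwh43, Erbb3 to Neurod1, 5430435G22Rik and Galnt14, and Nrg2 to Map7d1, BC031361 and Gid4, all with differences of 0.0080 to 0.0234. With 4 libraries in 2 groups, many genes share such a pattern.

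**Figure D5:**
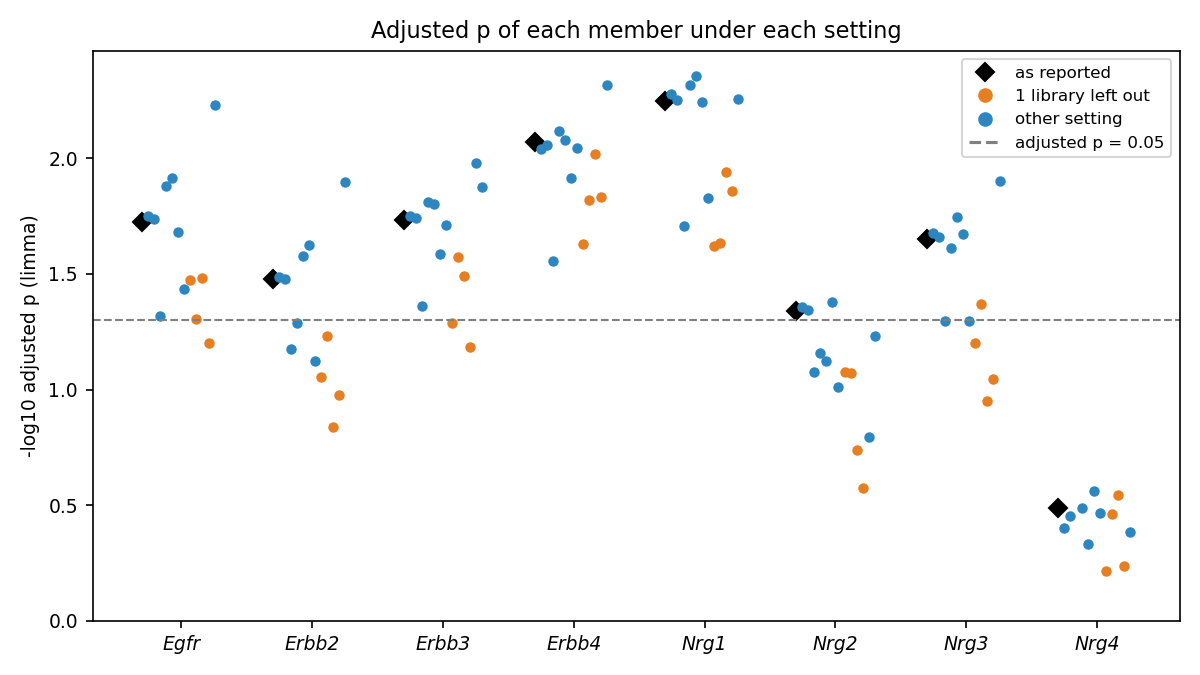
Limma adjusted p of each member, as -log10, under each setting tried: black diamonds are the values reported, orange points leave out 1 library and blue points change another setting. The dashed line is an adjusted p of 0.05. All points of Erbb4 and Nrg1 lie above the line, those of Nrg4, taken from fits with no filter, lie below it, and Egfr, Erbb2, Erbb3, Nrg2 and Nrg3 have points on both sides.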

How the data were processed

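RNA of olfactory bulbs was sequenced in 4 libraries. The submitters' processing notes name TopHat, with no version, Cufflinks 2.1.1 and the build GRCm38.p4. No source used here gives the gene annotation, the strand setting or how the aligner was run. The FPKM values were made by the authors, per the file headers. The columns headed count hold a signal that the authors scaled. In each library 98.7% to 98.9% of its nonzero values were within 0.05 of a multiple of 1 step, and the rest were not. Because of that remainder no count model was run. Column codes were matched to the sample descriptions, and 0 columns were left unmapped.

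Log2(FPKM + 1) values were fitted with limma 3.58.1 in R 4.3.3 (empirical Bayes with an intensity trend, DCKO minus control, two-sided, Benjamini-Hochberg over 13434 genes whose mean FPKM was 1 or more). At an unadjusted p below 0.05, 5790 genes pass. Alternatives were other pseudocounts, filters and scalings between libraries, a fit without the intensity trend, a replicate block, the scaled count columns, and the omission of each library. Coordinates are from GENCODE M21. Members and gene lists came from general knowledge, chosen with earlier results of these data known. Ereg, Hras and Spry3 of the lists were not analysed here. Genes named are all members, Sp8 and Sp9, up to 3 called members of each pathway list with the largest change, 1 of which is not reported here (otherwise the 2 of highest mean), up to 3 most abundant markers of each cell type, of which those printed were picked with values known, and the genes of most similar pattern. Other genes named were chosen after their values were seen: Gad2, Penk, Bace1, Hbegf, Egf, Areg, Btc, Epgn, Map2k2, Spry2, Dlg1, Dlg2 and Ccnd1.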

Additional observations from a re-analysis of the deposited data

How the results depend on the processing

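No member changed direction in any setting. Most settings could not have shown a reversal, because the groups of each member did not overlap. Leaving out a library, or changing the pseudocount, the filter, the trend or the block, keeps the sign in that case. Erbb4 (log2 change -1.50 to -1.05) and Nrg1 (0.94 to 1.25) stayed below an adjusted p of 0.05 in all 12 alternatives run for each. With 1 library left out, the log2 change was 0.59 to 0.82 for Egfr (called in 3 of 4 omissions), 0.42 to 0.49 for Erbb2 (0 of 4), 0.49 to 0.70 for Erbb3 (2 of 4), -1.41 to -1.05 for Erbb4, 0.94 to 1.04 for Nrg1, -0.35 to -0.29 for Nrg2 (0 of 4), 0.43 to 0.51 for Nrg3 (1 of 4) and -0.30 to -0.10 for Nrg4 (0 of 4). Egfr was called in each other setting, with adjusted p up to 0.0479.

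With no filter, Erbb2 (0.46, adjusted p = 0.0665), Nrg2 (-0.32, 0.0839) and Nrg3 (0.47, 0.0506) did not pass. More genes were then tested, and the unadjusted limma p of each was also higher, for Nrg3 0.00689 against 0.00343 with the filter. Nrg2 also missed with a mean of at least 5 FPKM (-0.32, 0.0586), which left only Erbb3 and Nrg2 among the members, with quantile normalization (-0.29, 0.0692), median centring (-0.26, 0.0749) and the deposited count columns (-0.29, 0.160). Erbb2 missed with quantile normalization (0.45, 0.0513). The cause was not tested for these scalings. Labels share replicate numbers, but deviations of same-numbered libraries did not correlate (-0.0211). With a replicate block, Erbb2 (0.46, 0.0749), Nrg2 (-0.32, 0.0976) and Nrg3 (0.47, 0.0507) were not called, and 1312 genes rose and 1418 fell.

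Over all genes 1747 rose and 1926 fell (47.6% higher), against 2225 and 1580 with median centring (58.5% higher). With 1 library left out, 806 to 1384 rose and 1030 to 1875 fell. Pathway genes called then numbered 4 to 13 higher and 18 to 25 lower, with the fewest increases without control replicate 2 (4) and control replicate 1 (8). With 1 library left out, the difference in share of summed FPKM, DCKO minus control in percentage points, was 5.45 to 9.98 for Egfr, then Erbb2 2.82 to 3.87, Erbb3 9.19 to 16.6, Erbb4 -26.0 to -21.8, Nrg1 14.1 to 16.5, Nrg2 -18.2 to -17.4, Nrg3 4.49 to 6.94 and Nrg4 -4.06 to -2.32. Nrg4 rests on the fewest scaled fragments, 29.3 and 34.5 in DCKO and 37.3 and 49.2 in controls.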

Other observations

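The number of scaled fragments per unit of FPKM follows the transcript length that the authors' software assigned to a gene, so a shift in it would accompany a change in the mixture of long and short isoforms. After each library was scaled to its own median, Nrg1 had 32.2 and 33.0 fragments per FPKM in DCKO and 33.3 and 32.2 in controls, with overlapping groups. Erbb4 had 85.05 and 84.69 in DCKO and 85.68 and 85.08 in controls, close values whose groups did not overlap, as was also so for Nrg3 and Nrg4. The log2 difference, DCKO minus control, was between -0.034 (Nrg4) and 0.029 (Erbb2) over the 8 members, and 30.4% to 83.1% of genes with more than 1 FPKM in every library had a larger shift in either direction. Changes of members in the scaled fragments and in FPKM were therefore alike, with a DCKO to control ratio of 0.346 in fragments and 0.348 in FPKM for Erbb4, and of 2.44 in fragments and 2.45 in FPKM for Nrg1.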
